A study of Mus musculus with 8 samples.

Results

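Mgl2, Clec10a, Cd209a, Cd209b, Cd209d and Cd209f encode 6 sugar-binding receptors of macrophages and dendritic cells, and they are described here across 8 RNA-seq libraries of cells enriched for macrophages from mouse inguinal fat. They are 6 of the 56748 gene rows of the deposited count table and were taken from it by their Ensembl identifiers. The genes were chosen by how they differed between the groups and by their ratios to Csf1r in these same libraries, so all of those values are given as a description, with no test. All 8 libraries came from wild-type (WT) female mice. In the Aldara group (4 libraries), mice had about 62.5 mg of Aldara put on shaved back skin near the tail. Aldara is a cream with 5% imiquimod, which activates Toll-like receptor 7. In the Vehicle group (4 libraries), mice received the same volume of a control cream, composed of Boots Aqueous Cream/10% Vaseline Lanette Cream. Both creams were applied on 3 consecutive days, and mice were killed 24 h later. The age of the mice is not given in the labels. Each library pooled F4/80 bead-selected cells of 6 fat pads, about 30000 cells, and only preparations with more than 90% of F4/80 and CD64 double-positive cells were used. Nothing in the labels states that libraries within a group are from different mice, so SDs, SEs and p-values reflect the spread among pools, which may be technical.

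C-type lectins fold into a domain that holds a calcium ion, and a short motif beside that ion largely decides which sugar is bound. Clec10a (CD301a) and Mgl2 (CD301b) are the pair of mouse galactose-type lectins, which carry a QPD motif and bind terminal galactose and N-acetylgalactosamine, as found on incompletely capped O-glycans. Both are widely used as markers of tissue macrophages with an interleukin-4 type of activation, and Mgl2 also marks a set of dermal dendritic cells. The Cd209 genes are the mouse relatives of human DC-SIGN, carry mostly an EPN motif and bind mannose and fucose. Cd209a was first described in dendritic cells, Cd209b (SIGNR1) takes up microbial polysaccharides in splenic marginal zone and lymph node macrophages, and Cd209d (SIGNR3) resembles human DC-SIGN in its ligands. Less is known of Cd209f.

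The coding bases around this motif are shown for each of the 6 genes, and for Cd209g, a relative of Cd209f, because they give the sugar class of each receptor. They run 5′ to 3′ on the coding strand, are read from the GENCODE M21 transcripts (GRCm38, the assembly also called mm10), and have the 3 motif codons in capitals.
Mgl2: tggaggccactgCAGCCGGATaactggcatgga
Clec10a: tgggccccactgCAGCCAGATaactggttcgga
Cd209a: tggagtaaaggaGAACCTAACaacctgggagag
Cd209b: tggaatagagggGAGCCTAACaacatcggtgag
Cd209d: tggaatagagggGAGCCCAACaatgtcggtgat
Cd209f: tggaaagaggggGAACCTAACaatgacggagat
Cd209g: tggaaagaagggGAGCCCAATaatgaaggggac
The capitals translate to QPD in Mgl2 and Clec10a and to EPN in the 4 Cd209 members and Cd209g. The motif was searched for only in the later part of the longest coding sequence of each gene, and was found once there. It starts at residue 324 of Mgl2, 260 of Clec10a, 198 of Cd209a, 285 of Cd209b, 196 of Cd209d and 234 of Cd209f. Of the other Cd209 genes, Cd209c carries EPN and Cd209e carries QPN.

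The 2 galactose-type genes lie close to each other on the plus strand of chromosome 11 (GRCm38), with Mgl2 (ENSMUSG00000040950) at chr11:70130329-70137550 and Clec10a (ENSMUSG00000000318) at chr11:70156197-70170834. Their coding sequences were identical at 782 of 835 aligned bases (93.7%). The 4 Cd209 members lie on the minus strand of chromosome 8, with Cd209a (ENSMUSG00000031494) at chr8:3743397-3748984, Cd209d (ENSMUSG00000031495) at chr8:3871824-3878555, Cd209b (ENSMUSG00000065987) at chr8:3917655-3926844 and Cd209f (ENSMUSG00000051906) at chr8:4102787-4105835. No exon of the 6 genes overlaps another annotated gene. Among all stretches of 100 bases in their transcripts, 3.95% of those of Mgl2 and 2.64% of those of Clec10a also occur in the other gene (91 stretches), and 19.9% of those of Cd209f occur in Cd209g. Cd209a, Cd209b and Cd209d share none with any other gene. How shared reads were treated is not stated in the labels or the file, so counts of Mgl2, Clec10a, Cd209f and Cd209g are uncertain to the extent that shared reads were split or dropped.

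The libraries held 19537607 to 24340674 counts in Aldara and 21874780 to 34471508 counts in Vehicle. The 12 macrophage markers, the label's cell type, summed to 3676 to 9590 CPM (counts scaled to library size with TMM factors) in Aldara and 1591 to 3086 CPM in Vehicle. Of them, 8 of 12 rose and 0 fell (edgeR quasi-likelihood test), and 11 rose with the replicate block. With 1 library left out, 11 rose without Aldara replicate 1, 4 without Aldara replicate 4 and 5 without Aldara replicate 3 or Vehicle replicate 1, 2 or 4. The 6 epithelial markers summed to 8003 to 10119 CPM in Aldara and 7805 to 11327 CPM in Vehicle, and 0 of 6 were called. In every Vehicle library the epithelial sum was thus above the macrophage sum, while in Aldara the ranges of the 2 sums overlapped. CPM values are therefore shares of RNA that includes epithelial RNA, and not levels in macrophages alone. How these sums relate to the stated purity was not tested. In these bulk libraries, fewer cells of a type and less RNA per cell cannot be told apart.

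Mgl2 was far lower after Aldara, while its neighbour Clec10a stood at about the same level in both groups. Within the Cd209 genes the directions were mixed, since Cd209a was lower, Cd209b and Cd209f were higher, and Cd209d overlapped between the groups. All 6 members passed the filter on low counts, and the edgeR quasi-likelihood fit over 16780 genes put 4 of 6 past an adjusted p of 0.05. Of all tested genes 10.8% were past it, 6.98% as higher and 3.86% as lower in Aldara. The members were picked on this contrast, so nothing is read from that count.

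**Figure D1:**
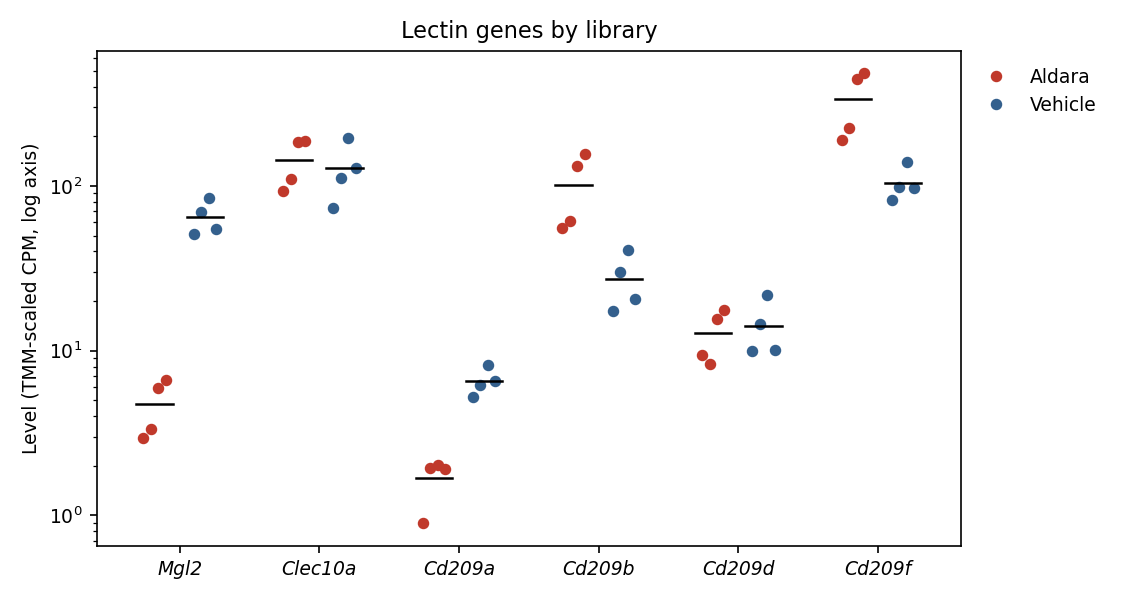
Level of each lectin gene in TMM-scaled CPM on a log axis, with 1 point per library (red Aldara, left; blue Vehicle, right; n = 4 each) and a black line at the group mean. Mgl2 lies between 2.95 and 6.65 CPM in Aldara and between 51.1 and 84.9 CPM in Vehicle, whereas the Clec10a groups overlap.

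Mgl2 measured 2.95, 3.35, 5.97 and 6.65 CPM in Aldara libraries 1 to 4, against 51.1, 69.5, 84.9 and 54.4 CPM in Vehicle libraries 1 to 4. Every Aldara library was below every Vehicle library, and the highest Aldara value was under the lowest Vehicle value by a wide margin. The means were 4.73 ± 1.86 CPM in Aldara and 65.0 ± 15.5 CPM in Vehicle (SD, n = 4 each). This is a log2 fold change of −3.79 (SE 0.29), or 13.8-fold lower, and 14 of the 16780 tested genes had a lower log2 fold change. The raw counts behind it were 69 to 145 in Aldara and 1089 to 3006 in Vehicle.

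Clec10a measured 92.8, 111, 184 and 188 CPM in Aldara libraries 1 to 4, against 73.4, 112, 197 and 129 CPM in Vehicle libraries 1 to 4. The groups overlapped over most of their range, with the highest and the lowest value both in Vehicle. The log2 fold change was 0.17 (SE 0.32).

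Cd209a measured 0.897, 1.95, 2.02 and 1.92 CPM in Aldara libraries 1 to 4, against 5.25, 6.17, 8.16 and 6.58 CPM in Vehicle libraries 1 to 4. It was the lowest of the 6 genes per length in both groups, and its groups did not overlap. The log2 fold change was −1.95 (SE 0.26), 3.86-fold lower, on 21 to 49 counts per Aldara library and 112 to 289 per Vehicle library.

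Cd209b measured 55.6, 61.6, 133 and 156 CPM in Aldara libraries 1 to 4, against 17.3, 29.8, 41.0 and 20.7 CPM in Vehicle libraries 1 to 4. Its groups did not overlap, and Aldara libraries 3 and 4 were well above libraries 1 and 2. The log2 fold change was 1.90 (SE 0.39), 3.72-fold higher. Without Aldara replicate 4 or without Vehicle replicate 1 the fit no longer put it past the threshold, with log2 fold changes of 1.60 and 1.73.

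Cd209f, which had the highest mean per kilobase of exon in both groups, measured 191, 224, 447 and 483 CPM in Aldara libraries 1 to 4, against 81.8, 98.0, 140.2 and 96.9 CPM in Vehicle libraries 1 to 4. Its groups did not overlap and it had the same ordering of Aldara libraries as Cd209b, with libraries 3 and 4 high. The log2 fold change was 1.69 (SE 0.32), 3.22-fold higher.

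Cd209d measured 9.44, 8.33, 15.6 and 17.7 CPM in Aldara libraries 1 to 4, against 9.99, 14.6, 21.9 and 10.1 CPM in Vehicle libraries 1 to 4. The groups overlapped and the log2 fold change was −0.16 (SE 0.32). The groups were thus apart in 4 of 6 members, where 17.8% of all tested genes had groups that did not overlap. Aldara libraries 3 and 4 were higher than libraries 1 and 2 in every member except Cd209a, in which libraries 2, 3 and 4 were alike. The geometric mean of the 12 macrophage markers had the same split, at 172, 246, 442 and 414 CPM in Aldara libraries 1 to 4 and 76.9, 106, 138 and 105 CPM in Vehicle libraries 1 to 4. Its part in the spread was not tested.

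Per kilobase of annotated exon, a scale on which genes can be compared, the order of the mean levels differed between the groups. In Aldara it ran Cd209f (169 CPM per kb), Clec10a (49.7), Cd209b (48.0), Cd209d (13.9), Mgl2 (2.26) and Cd209a (1.07). Clec10a and Cd209b were the only neighbours in that order whose ranges overlapped, and Clec10a was above Cd209b in 3 of 4 libraries. In Vehicle it ran Cd209f (52.4 CPM per kb), Clec10a (44.1), Mgl2 (31.0), Cd209d (15.4), Cd209b (12.9) and Cd209a (4.13). Here the ranges of Cd209f and Clec10a, of Clec10a and Mgl2, and of Cd209d and Cd209b overlapped, although within each of the 4 libraries every gene stood above the next. Mgl2 was thus the third of the 6 genes in Vehicle and the fifth in Aldara. The summed level of Mgl2 and Clec10a was 95.7, 114, 190.4 and 195 CPM in Aldara libraries 1 to 4 and 124, 182, 282 and 184 CPM in Vehicle libraries 1 to 4, so the sum overlapped between the groups. The summed level of the 4 Cd209 members was 256, 296, 597 and 659 CPM in Aldara libraries 1 to 4 and 114, 149, 211 and 134 CPM in Vehicle libraries 1 to 4, with no overlap.

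Set against Csf1r, which encodes the macrophage colony-stimulating factor receptor, the 6 genes separated into groups that did not overlap, in both directions. This ratio of raw counts within a library needs no library scaling. Csf1r itself measured 321, 404, 714 and 732 CPM in Aldara libraries 1 to 4, against 180.2, 265, 346 and 302 CPM in Vehicle libraries 1 to 4. Its log2 fold change was 0.99 (SE 0.30, edgeR adjusted p = 0.0648, and 0.00114 with the replicate number as a block). A gene with the same CPM in both groups therefore tends to be lower in Aldara on this scale. The share of all genes with groups apart on it was not computed, so nothing is read from the count of 6.

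**Figure D2:**
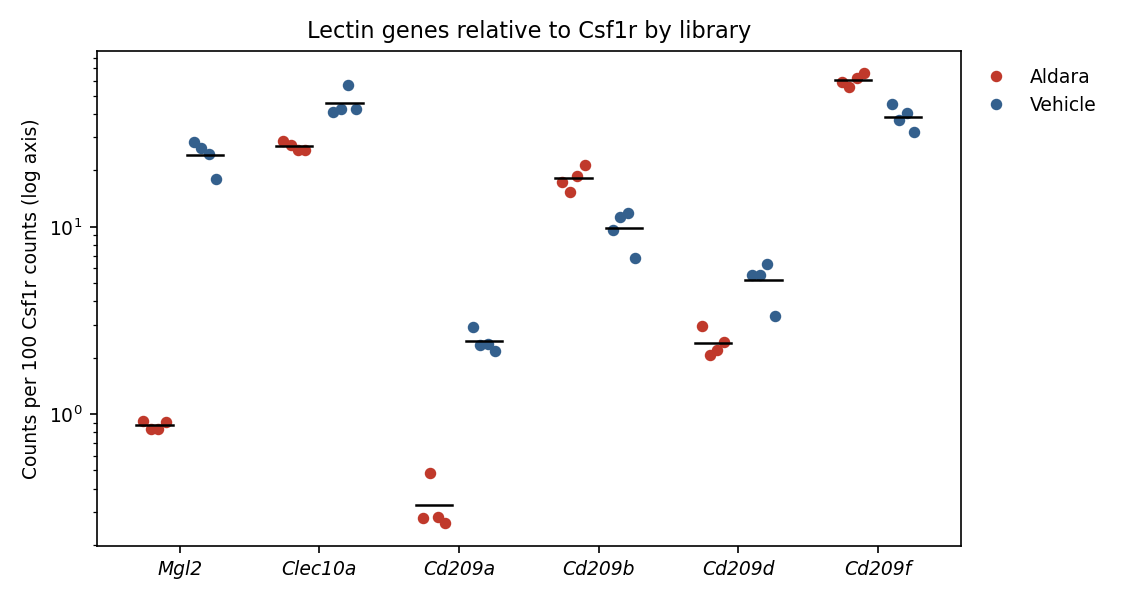
Counts of each lectin gene per 100 counts of Csf1r in the same library, on a log axis, with 1 point per library (red Aldara, left; blue Vehicle, right; n = 4 each) and a black line at the group mean. The groups are apart for all 6 genes, with Mgl2 between 0.828 and 0.916 in Aldara and between 18.0 and 28.3 in Vehicle. The share of all genes with groups apart on this scale was not computed.

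Mgl2 had 0.916, 0.828, 0.836 and 0.908 counts per 100 Csf1r counts in Aldara libraries 1 to 4, against 28.3, 26.2, 24.5 and 18.0 in Vehicle libraries 1 to 4. The Aldara libraries, whose CPM differed by up to 2.26-fold, differed by up to 1.11-fold on this scale. The difference was −4.78 on the log2 scale (SE 0.15), 27.5-fold lower.

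Clec10a had 28.9, 27.5, 25.8 and 25.7 counts per 100 Csf1r counts in Aldara libraries 1 to 4, against 40.7, 42.3, 56.8 and 42.7 in Vehicle libraries 1 to 4. Here, unlike in CPM, all Aldara libraries were below all Vehicle libraries. The difference was −0.75 on the log2 scale (SE 0.12).

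Cd209a had 0.279, 0.483, 0.283 and 0.262 counts per 100 Csf1r counts in Aldara libraries 1 to 4, against 2.91, 2.33, 2.36 and 2.18 in Vehicle libraries 1 to 4. The difference was −2.94 on the log2 scale (SE 0.22). Cd209d had 2.94, 2.06, 2.19 and 2.42 in Aldara libraries 1 to 4, against 5.54, 5.50, 6.33 and 3.36 in Vehicle libraries 1 to 4. Like Clec10a, it overlapped in CPM and was lower in every Aldara library on this scale, by −1.08 on the log2 scale (SE 0.23).

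Cd209b had 17.3, 15.2, 18.6 and 21.3 counts per 100 Csf1r counts in Aldara libraries 1 to 4, against 9.60, 11.3, 11.8 and 6.84 in Vehicle libraries 1 to 4. The difference was 0.90 on the log2 scale (SE 0.20). Cd209f had 59.3, 55.4, 62.6 and 66.0 in Aldara libraries 1 to 4, against 45.4, 36.9, 40.5 and 32.0 in Vehicle libraries 1 to 4. It was higher in every Aldara library on this scale too, by 0.66 on the log2 scale (SE 0.12). Between the 4 Aldara libraries, the coefficient of variation of Cd209f was 44.7% in CPM and 7.45% relative to Csf1r, and that of Clec10a was 34.2% in CPM and 5.58% relative to Csf1r. For Cd209a it was 31.5% in CPM and 32.1% relative to Csf1r.

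The size of these ratios depended on the choice of macrophage gene, and for Cd209b and Cd209f so did whether the groups were apart. With 5 denominators (Csf1r, Cd68, Mertk, Ptprc and the geometric mean of the 12 macrophage markers), 4 members were lower in Aldara with each of them. The log2 difference ranged from −5.60 (Ptprc) to −4.67 (Cd68) for Mgl2 and from −3.77 (Ptprc) to −2.83 (Cd68) for Cd209a. It ranged from −1.57 to −0.64 for Clec10a and from −1.91 to −0.97 for Cd209d, over the same 2 denominators. Cd209b was between 0.07 (Ptprc) and 1.01 (Cd68), and its groups overlapped relative to Ptprc and to the marker list. Cd209f was between −0.16 (Ptprc) and 0.77 (Cd68), and its groups overlapped relative to Mertk, Ptprc and the marker list. The only negative value of Cd209f, relative to Ptprc, had an SE of 0.14, so a reversed direction is not established. Whether Cd209f rose more than the macrophage genes thus depended on the denominator.

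**Figure D3:**
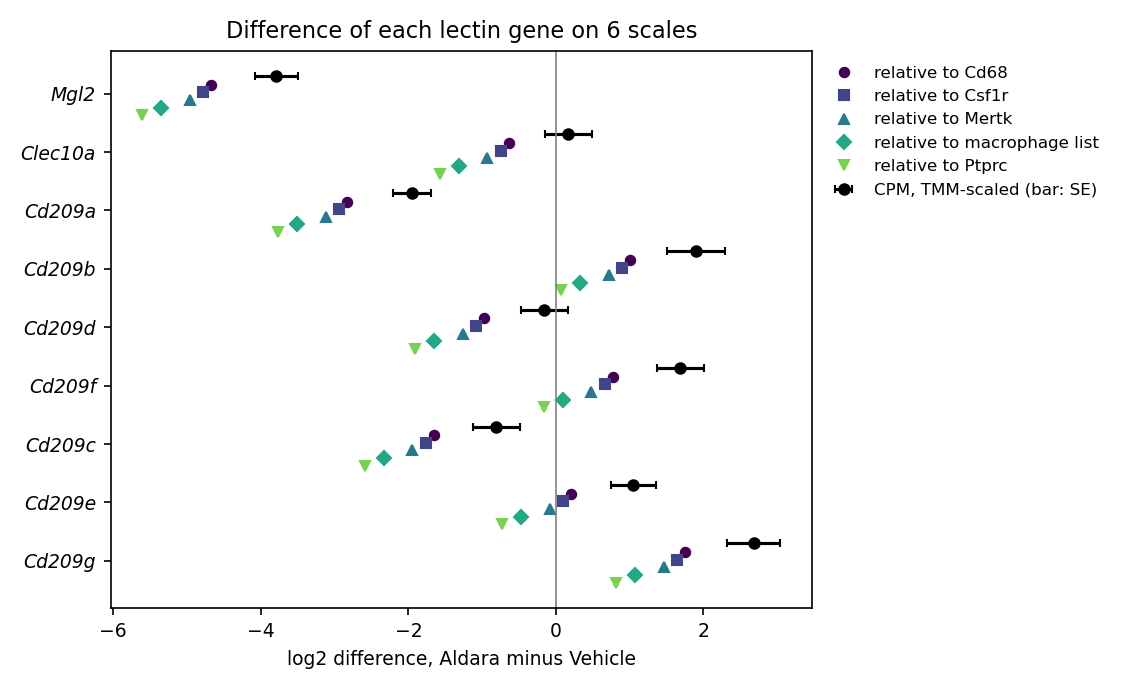
Log2 difference, Aldara minus Vehicle, of the 6 lectin genes and of Cd209c, Cd209e and Cd209g on 6 scales, with TMM-scaled CPM in black (bar: SE) and the ratios to Cd68, Csf1r, Mertk, the macrophage marker list and Ptprc in colour (n = 4 libraries per group). Mgl2, Cd209a, Cd209c and Cd209d lie left of 0 on all 6 scales, Cd209d at −0.16 in CPM. Cd209b and Cd209g lie right of 0 on all 6, Cd209b at 0.07 relative to Ptprc. Cd209f lies at −0.16 relative to Ptprc and at 1.69 in CPM.

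Ratios between the lectin genes depend on no macrophage gene and no scaling. There were 3.18, 3.02, 3.24 and 3.54 counts of Mgl2 per 100 counts of Clec10a in Aldara libraries 1 to 4, against 69.5, 62.0, 43.2 and 42.1 in Vehicle libraries 1 to 4. The ratio was 16.3-fold lower in Aldara (log2 difference −4.03, SE 0.19). It varied up to 1.17-fold between Aldara libraries and up to 1.65-fold between Vehicle libraries. The transcripts have 91 stretches of 100 bases in common, and the part of shared reads in the 69 to 145 Mgl2 counts of the Aldara libraries was not tested.

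Cd209d was taken as the base within the Cd209 genes after its values were seen, because its level in CPM overlapped between the groups. Ratios to it therefore largely restate the differences in CPM. Relative to each macrophage denominator Cd209d was itself lower in Aldara. Cd209a had 9.50, 23.4, 12.9 and 10.8 counts per 100 Cd209d counts in Aldara libraries 1 to 4, against 52.6, 42.3, 37.2 and 64.9 in Vehicle libraries 1 to 4 (log2 difference −1.86, SE 0.34). Cd209b had 589, 740, 853 and 881 in Aldara libraries 1 to 4, against 173, 205, 187 and 204 in Vehicle libraries 1 to 4 (log2 difference 1.98, SE 0.14). Cd209f had 2019 to 2863 in Aldara and 640 to 955 in Vehicle (log2 difference 1.74, SE 0.18). Cd209b and Cd209f kept nearly the same proportion to each other, with 29.2, 27.5, 29.8 and 32.3 counts of Cd209b per 100 of Cd209f in Aldara libraries 1 to 4, against 21.2, 30.5, 29.2 and 21.3 in Vehicle libraries 1 to 4. These 2 groups overlapped. With this base Cd209a was lower and Cd209b and Cd209f were higher, as in CPM. The choice of base makes that no further evidence.

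Of the 10 further galactose-binding and Cd209-like genes, 5 had enough counts to be tested. Of these 5, 1 rose and 0 fell, with a median log2 fold change of 0.38 against 0.01 over all tested genes. The one that rose was Cd209g (ENSMUSG00000079168, chr8:4134098-4137707, plus strand), which measured 121, 136, 308 and 311 CPM in Aldara libraries 1 to 4, against 29.9, 25.6, 47.3 and 33.6 CPM in Vehicle libraries 1 to 4. Its groups did not overlap (log2 fold change 2.68, SE 0.36, edgeR adjusted p = 0.00386). Cd209e measured 1.45 ± 0.423 CPM in Aldara and 0.695 ± 0.148 CPM in Vehicle (log2 fold change 1.05, SE 0.31, adjusted p = 0.0519, and 0.0499 with the replicate block, SD over n = 4 each in the edgeR fit). Cd209c measured 0.638 ± 0.207 CPM in Aldara and 1.11 ± 0.24 CPM in Vehicle, and Colec12, a scavenger receptor with a lectin domain, 21.8 ± 8.21 CPM in Aldara and 16.6 ± 3.14 CPM in Vehicle (edgeR adjusted p = 0.131 and 0.429). The hepatic lectin Asgr2 measured 1.37 ± 0.612 CPM in Aldara and 1.68 ± 0.871 CPM in Vehicle, and Clec4f, the Kupffer cell galactose lectin, had 0 counts in all 8 libraries.

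Cd209f and Cd209g are alike in sequence and had the same direction. Their coding sequences were identical at 524 of 579 aligned bases (90.5%), and the RefSeq windows around their starts (GRCm38.p6, 250 bases before to 50 bases after each start) at 258 of 281 aligned bases (91.8%). The Cd209g window lies within annotated exon of M21, whose Cd209g starts earlier than that of RefSeq. Both windows are shown because the copies extend beyond the coding part. They run 5′ to 3′ on the strand of the gene, at chr8:4105715-4106014 (minus strand) for Cd209f and chr8:4134486-4134785 (plus strand) for Cd209g, and capitals mark the 42 bases of each that differ from the other window or have no counterpart in it.
Cd209f: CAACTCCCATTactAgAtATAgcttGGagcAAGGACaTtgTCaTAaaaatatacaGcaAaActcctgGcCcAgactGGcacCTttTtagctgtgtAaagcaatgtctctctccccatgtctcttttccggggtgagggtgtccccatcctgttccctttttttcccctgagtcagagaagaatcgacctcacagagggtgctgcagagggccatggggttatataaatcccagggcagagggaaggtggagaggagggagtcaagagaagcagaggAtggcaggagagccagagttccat
Cd209g: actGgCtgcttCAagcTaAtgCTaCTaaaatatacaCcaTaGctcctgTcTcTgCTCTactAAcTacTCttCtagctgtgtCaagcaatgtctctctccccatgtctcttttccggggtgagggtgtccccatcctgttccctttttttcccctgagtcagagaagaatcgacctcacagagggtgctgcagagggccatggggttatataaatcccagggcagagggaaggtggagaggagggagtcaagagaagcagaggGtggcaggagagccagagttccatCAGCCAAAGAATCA
Most of the differences lie in the first part of each window, before a stretch that is nearly identical. The genes were nonetheless higher by unequal amounts. Cd209g had 63.4, 60.9, 69.0 and 64.4 counts per 100 Cd209f counts in Aldara libraries 1 to 4, against 36.5, 26.1, 33.7 and 34.7 in Vehicle libraries 1 to 4. The ratio was 1.98-fold higher in Aldara (log2 difference 0.98, SE 0.11), with groups that did not overlap. The transcripts have 467 stretches of 100 bases in common, and the part of shared reads in this ratio was not tested.

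**Figure D4:**
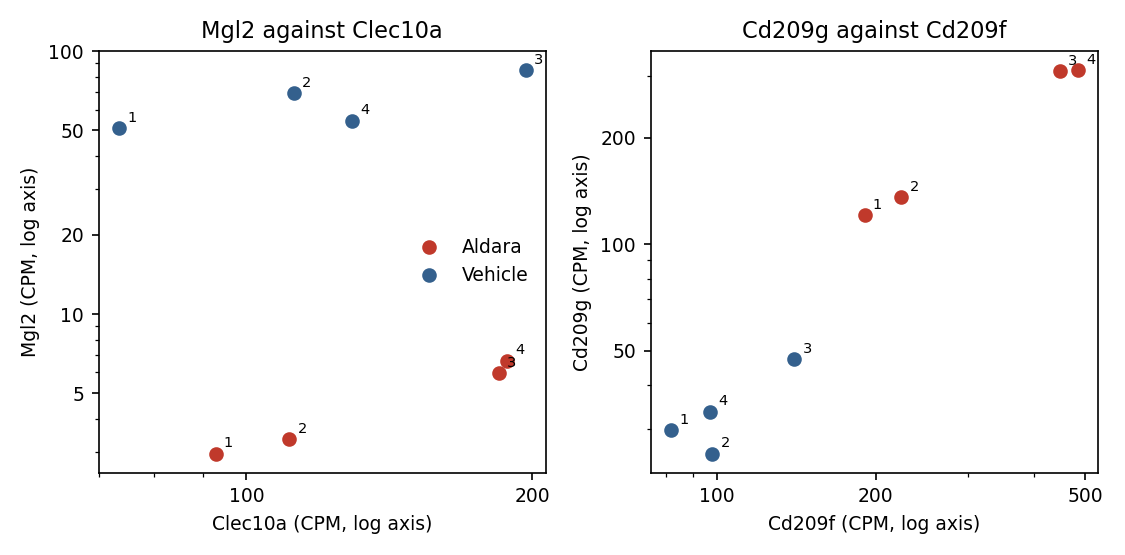
Level of Mgl2 against Clec10a (left) and of Cd209g against Cd209f (right) in TMM-scaled CPM on log axes, with 1 point per library, numbered by replicate (red Aldara, blue Vehicle; n = 4 each). The Aldara libraries span the same Clec10a levels as the Vehicle libraries at far lower Mgl2, between 2.95 and 6.65 CPM, whereas Cd209f and Cd209g are both higher in every Aldara library.

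Among 25 other C-type lectin receptors of myeloid cells, 21 were tested, 7 rose and 2 fell, with a median log2 fold change of 0.27. Those with the smallest p belong to the Dcir group, inhibitory or Fc receptor chain-coupled lectins encoded in another gene cluster. Clec4a2 measured 104 ± 52.1 CPM in Aldara and 10.8 ± 3.89 CPM in Vehicle (log2 fold change 3.24, SE 0.42, edgeR adjusted p = 0.00328, n = 4 each). Clec4a1, Clec4a3 and Clec4b1 rose by log2 fold changes of 2.88, 2.81 and 2.68. The other 3 that rose were Clec12a (2.23), an inhibitory uric acid receptor, Cd302 (1.31) and Clec4n (1.07), the fungal receptor Dectin-2. The 2 that fell were Clec5a (−1.22), a signalling receptor of monocytes and neutrophils, and Cd93 (−0.45). Leaving out 1 library ended the calls of Clec5a and of Cd93 in 6 of 8 fits each, of Clec4n in 7 and of Cd302 in 5, with adjusted p up to 0.125 for Cd93. Mrc1, the mannose receptor and the most abundant lectin of this list, measured 595 ± 226 CPM in Aldara and 309 ± 47.4 CPM in Vehicle (log2 fold change 0.95, edgeR adjusted p = 0.0546, and 0.0102 with the replicate block). Relative to Csf1r it overlapped between the groups, at 99.9 to 123 counts per 100 in Aldara and 101 to 135 in Vehicle, unlike Mgl2, with which it is commonly used as a marker. Mrc1 overlapped relative to Cd68 and Mertk too. Relative to Ptprc and to the macrophage marker list it was lower in every Aldara library, by log2 differences of −0.90 (SE 0.04) and −0.64 (SE 0.09).

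Since Mgl2 and Clec10a are known as interleukin-4 responsive genes, 20 genes of that response were read beside them. Of the 18 tested, 3 rose and 4 fell, with a median log2 fold change of −0.0017. With the replicate block 5 rose and 6 fell, and 5 rose without Aldara replicate 1. The count that fell was 2 without Aldara replicate 2 or 3 and 1 without Aldara replicate 4. Those that fell were Alox15 (−2.45), a lipoxygenase, Tgm2 (−2.04), a transglutaminase, Arg1 (−1.66), the arginine-degrading enzyme, and Socs2 (−0.70), a feedback inhibitor of cytokine signalling. Those that rose were Chil3 (2.88), a chitinase-like protein, Cd200r1 (2.12), an inhibitory receptor, and Egr2 (0.82), a transcription factor. Chil3 was near the floor, at 2.20 ± 0.991 CPM in Aldara and 0.285 ± 0.194 CPM in Vehicle, on 0 to 14 counts per Vehicle library. Arg1 measured 9.87 ± 2.57 CPM in Aldara and 31.2 ± 17.0 CPM in Vehicle, and Alox15 2.15 ± 0.655 CPM in Aldara and 11.9 ± 7.79 CPM in Vehicle (edgeR adjusted p = 0.0214 and 0.0138, n = 4 each). Leaving out 1 library ended the call of Alox15 in 1 of 8 fits (without Aldara replicate 4), of Arg1 and of Tgm2 in 4 each and of Egr2 in 5, with adjusted p up to 0.0757 for Tgm2. Retnla, a secreted protein of alternatively activated macrophages, measured 130.4 ± 47.2 CPM in Aldara and 339 ± 179 CPM in Vehicle (log2 fold change −1.38, edgeR adjusted p = 0.0545, and 0.00228 with the replicate block). The receptor chain Il4ra measured 124 ± 26.0 CPM in Aldara and 94.8 ± 30.9 CPM in Vehicle, and the transcription factor Stat6 193 ± 11.4 CPM in Aldara and 162 ± 5.15 CPM in Vehicle. Neither passed (edgeR adjusted p = 0.332 and 0.066). Mgl2 was thus lower like Alox15, Tgm2, Arg1 and Socs2 and unlike Chil3, Cd200r1 and Egr2, while Clec10a overlapped between the groups. Of the 18 tested genes 9 had a positive and 9 a negative log2 fold change, so the list showed no shared direction.

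The 16 genes of resident and perivascular macrophages were all tested, and 4 rose and 0 fell (10 rose and 1 fell with the replicate block, and 10 rose without Aldara replicate 1), with a median log2 fold change of 0.82. Among those that rose were Fcrls (2.68), an Fc receptor-like protein, Vsig4 (1.94), a complement receptor, and Igf1 (1.22), a growth factor. The call of Igf1 was lost without Aldara replicate 4 or Vehicle replicate 2. In this list 12 genes had a positive log2 fold change and 4 a negative one, Lyve1 and Timd4 among the latter. Lyve1 and Timd4, a hyaluronan receptor and a phosphatidylserine receptor of resident macrophages, measured 109 ± 56.9 and 13.7 ± 5.92 CPM in Aldara and 119 ± 28.8 and 15.1 ± 2.44 CPM in Vehicle (edgeR adjusted p = 0.865 and 0.815). A list of 19 enzymes and carriers was drawn up around galactose-ended O-glycans, the kind of sugar that Mgl2 and Clec10a bind. It also holds enzymes that add sialic acid or fucose, so its counts do not measure how much of that sugar was made. Of the 19 genes 17 were tested, 3 rose and 1 fell, with a median log2 fold change of 0.14. Galnt2 and Galnt6, which start O-glycans, rose by 0.68 and 1.80, and Muc1, a mucin that carries them, by 0.70. C1galt1, which adds the galactose, fell by 0.48, and its call was lost in 5 of the 8 fits that left out a library. Muc1 and Galnt6 lost theirs in 6 and 4 of those fits, and without Aldara replicate 3 or Vehicle replicate 4 a single gene of this list rose.

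Because Mgl2 and Cd209a are also known from dendritic cells, 14 markers of those cells were set beside them. Their summed level was 178 to 460 CPM in Aldara and 181 to 384 CPM in Vehicle, most of it from H2-Ab1 and Irf8, which macrophages also express. Of the 10 tested, Irf8 (1.39) and Batf3 (2.54) rose and Siglech (−1.60), a receptor of plasmacytoid dendritic cells, fell. Of the defining markers, Flt3 stayed at or below 0.0854 CPM in Aldara and 0.169 CPM in Vehicle, Xcr1 at or below 0.319 CPM in Aldara and 0.0469 CPM in Vehicle, and Cd207 at or below 0.266 CPM in Aldara and 0.113 CPM in Vehicle. Zbtb46 measured 6.36 ± 0.854 CPM in Aldara and 5.63 ± 0.919 CPM in Vehicle, and Ccr7 0.229 ± 0.236 CPM in Aldara and 0.721 ± 0.274 CPM in Vehicle (edgeR adjusted p = 0.584 and 0.101). The part of dendritic cells in the Mgl2 and Cd209a values was not tested. The summed level did not overlap between the groups for 3 other marker lists. That of the 5 B cell markers was 3.80 to 9.10 CPM in Aldara and 0.411 to 0.996 CPM in Vehicle, and the 1 marker with enough counts to be tested, Cd79b, rose. That of the 6 neutrophil markers was 18.7 to 57.6 CPM in Aldara and 5.25 to 11.9 CPM in Vehicle, where again 1 marker was tested and rose, Csf3r, and Ly6g had 0 counts. That of the 7 fibroblast and adipocyte markers was 162 to 289 CPM in Aldara and 296 to 588 CPM in Vehicle, and its members differed in direction, since 1 rose (Adipoq of adipocytes, 1.14) and 3 fell (the fibroblast matrix genes Col3a1, −2.13, Col1a1, −1.61, and Dcn, −0.78). Leaving out 1 library ended the call of Adipoq in 7 of 8 fits and of Col1a1 in 6. The sums of T and NK cells (2.03 to 3.87 CPM in Aldara and 1.69 to 3.36 CPM in Vehicle), of mast cells and eosinophils (185 to 361 CPM in Aldara and 230.1 to 312 CPM in Vehicle) and of endothelial cells (172 to 311 CPM in Aldara and 189.9 to 291 CPM in Vehicle) overlapped. Of the 7 T and NK cell markers 1 had enough counts to be tested, Cd4. Of the 7 mast cell and eosinophil markers it was 1 too, Kit. The sums of these lists, of B cells and of neutrophils thus rest on too few genes to measure a cell type.

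The genes most alike to each member in their pattern over the 8 libraries were found by the root mean square difference of log2 CPM, each gene centred on its own mean, among 10998 genes with a mean of at least 5 CPM. A value of 0 means the same pattern. Mgl2 had no close match, the nearest being Trem2 (0.61), a lipid receptor of macrophages, Gpx3 (0.82), a secreted peroxidase, and Pla2g2d (0.85), a secreted phospholipase. Trem2 measured 1.21 ± 0.255 CPM in Aldara and 8.91 ± 2.31 CPM in Vehicle. Pla2g2d was also the nearest to Cd209a (0.37), before Nlrp3 (0.40), the inflammasome sensor, and Spc25 (0.40), a kinetochore protein. Genes near Clec10a were Cd83 (0.12), an activation antigen of antigen-presenting cells, and Mndal (0.17). Cd209d was nearest to Il10 (0.20), the anti-inflammatory cytokine, Rnase4 (0.21) and H3f3a-ps1 (0.21), a pseudogene.

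Cd209b was nearest to C1qc (0.20), a chain of complement C1q, Pla2g7 (0.21), a phospholipase, and Cd37 (0.23), a tetraspanin. C1qc measured 732 ± 340 CPM in Aldara and 219.9 ± 75.0 CPM in Vehicle. Cd209f had the closest matches of the 6, with Pik3r6 (0.09), a regulatory subunit of PI3 kinase gamma, Laptm5 (0.11), a lysosomal protein of leukocytes, and Ighm (0.12), the immunoglobulin M heavy chain. Among the 6 genes themselves the most alike pair was Cd209b and Cd209f (0.22), followed by Clec10a and Cd209d (0.30), and Mgl2 was nearest to Cd209a (0.98). Clec10a, of the QPD class, was thus closer in pattern to Cd209d, of the EPN class, than to its own neighbour Mgl2 (2.02).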

How the data were processed

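RNA of F4/80-enriched inguinal fat pad cells was amplified with a SMARTer ultra-low-input kit and poly-A enriched, per the labels' protocols, and this kit does not mark strand. The authors deposited raw read counts for each gene in 8 libraries. The mm10 build, HISAT2 2.0.5, DESeq2 and featureCounts 1.5.0-p3 are named per the submitters' processing notes. The table has 56748 rows, 25044 of them 0 in every library, and GENCODE M21 gave a symbol for 91.8%. Some identifiers are newer than M21, so coordinates and lengths are those of M21 and need not be those the authors counted on.

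Counts were filtered with filterByExpr (16780 genes kept), scaled with TMM and tested with the robust quasi-likelihood F test of edgeR 4.0.16 in R 4.3.3, Aldara against Vehicle. P-values were adjusted by Benjamini-Hochberg across the 16780 genes, with a threshold of 0.05. SEs come from the F statistic, and SEs of ratios from the pooled SD of log2 ratios. Levels are TMM-scaled CPM. Reads were amplified without molecular identifiers, so a count is not a number of molecules. The procedure was also run on simulated libraries without any effect shared by replicate number, and no result here rests on that run. Chi-square per degree of freedom was at least 18.2 between any libraries of a group, so none was a duplicate.

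The members, gene lists and tests were chosen with earlier results of these data known. Named are the 6 members and Csf1r, up to 4 tested genes of smallest p per companion list (5 lists) and the 3 genes most alike to each member (mean of at least 5 CPM, prior count of 2, no predicted gene models). Some genes so taken are not reported here. Cd209g was also compared in detail, and other list genes were named after their values were seen. Libraries with the same replicate number deviated together from their group means (correlations across genes 0.228, 0.108, 0.167 and 0.218 for replicates 1 to 4), each above 0.1. The labels do not say what the numbers mark. The main fit and the SEs of ratios therefore use no pairing, and a fit with the replicate number as a block is given as an alternative. Alternatives were other scaling factors, filters and tools (limma 3.58.1, DESeq2 1.42.0), the replicate block, other denominators and leaving out each library. Ratios between lectin genes and their leave-one-out values were added after seeing the data.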

Additional observations from a re-analysis of the deposited data

Results flagged for a closer look

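In groups of 4 libraries, a library was picked out where its gap to the nearest other library exceeded Dixon's 95% critical share of the range of the group. Of 114 groups of values 5 had such a library, and chance alone gives about 1 in 20. Cd209a stood at 0.897 CPM in Aldara replicate 1, with the other 3 Aldara libraries between 1.92 and 2.02 CPM. Relative to Csf1r it was instead Aldara replicate 2 that stood apart, at 0.483 counts of Cd209a per 100, with the others between 0.262 and 0.283. The same library had 58.3 counts of Cd209a per 100 of Mgl2, with the others between 28.8 and 33.8. Clec10a reached 56.8 counts per 100 of Csf1r in Vehicle replicate 3, with the other Vehicle libraries between 40.7 and 42.7. H3f3a-ps1, a gene of a pattern like that of Cd209d, had 8.87 CPM in Vehicle replicate 3, with the others between 3.85 and 4.45 CPM.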

How the results depend on the processing

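The 6 lectin genes were chosen on this contrast, so which of them pass the threshold (Mgl2, Cd209a, Cd209b and Cd209f) is no independent evidence in any setting. The 4 genes were the same in 12 of 15 other settings. Cd209b was lost without Aldara replicate 4 or Vehicle replicate 1, and Cd209b and Cd209f with no filter on low counts, while every fold change of the 6 genes kept its size within the spread between libraries. Genes lower in Aldara numbered 647, and 990 with upper-quartile factors, 1030 with the replicate block and 1192 with DESeq2. Leaving out each library gave 323 to 664 lower genes and 629 to 1405 higher genes, against 1171 with all libraries. The replicate block also called Csf1r, Cd209e, Mrc1 and Retnla and moved the list counts given with it, and it changed no other call of a gene reported with a p. Of all calls 64.4% were higher in Aldara, and 49.7% with upper-quartile factors.

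Ratios to Csf1r moved beyond the spread with other denominators. Relative to Ptprc the log2 difference was −5.60 for Mgl2, −1.57 for Clec10a, −3.77 for Cd209a, 0.071 for Cd209b, −1.91 for Cd209d and −0.16 for Cd209f. The last had the opposite sign, with an SE of 0.14 and groups that overlapped. Relative to the macrophage marker list it was −5.35 for Mgl2, −1.31 for Clec10a, −3.51 for Cd209a, 0.33 for Cd209b, −1.65 for Cd209d and 0.094 for Cd209f. Relative to Mertk it was −0.93 for Clec10a and 0.48 for Cd209f. These 3 denominators differed more between the groups than Csf1r did. Without any 1 library, no ratio to Csf1r moved beyond the spread. Cd209a rests on 21 to 49 counts per Aldara library, which limits its precision.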
